A study of Mus musculus with 8 samples.

Results

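The 98 genes described here carry symbols used for subunits of the 5 complexes of oxidative phosphorylation (OXPHOS), and they were taken by symbol alone: protein-coding mouse genes named Nduf (letters a, b, c, s and v), Sdha to Sdhd, Uqcr, Cox4 to Cox8 and Atp5, with the mt-Nd, mt-Co, mt-Atp and mt-Cytb genes of mitochondrial DNA. They are 98 of the 54232 gene identifiers counted, with 85 encoded in the nucleus and 13 in the mitochondrial genome. Complex I held 37 nuclear and 7 mitochondrial genes, complex II held 4 nuclear genes, complex III held 8 nuclear genes and 1 mitochondrial gene, complex IV held 18 and 3, and complex V, the ATP synthase, held 18 and 2. Genes were assigned to complexes by symbol alone, so a product need not be a subunit of the complex it stands with. Ndufa4 and Ndufa4l2, for example, stand with complex I only by name. The symbols leave out a few subunits with other names (such as Cyc1 and Ndufab1), which are given with the electron carriers below.

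RNA-seq was performed on CD8+ T cells and NK cells sorted from spleens of homeostatic, untreated Tyk2-/- mice (C57BL/6 in the labels and C57BL/6N in the methods, 8 to 12 weeks), with 3 libraries of each cell type and 3 littermates pooled per library. TYK2 is the Janus kinase that relays signals of type I interferons and interleukin 12, and every library compared here came from the knockout, so the comparison is one of cell types within a single genotype. Wild-type CD8+ T cells were also part of the series, but 3 columns carried their name against 2 samples, so they were not used and no effect of Tyk2 loss was estimated. The methods name more than one Tyk2-/- line, one of them with a CMV-cre transgene, and the labels do not say which was used. Libraries are numbered 1 to 3 as in the count table, and these numbers do not pair NK with CD8+ T cell libraries.

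In OXPHOS, complexes I and II take electrons from NADH and succinate, complexes III and IV pass them by way of ubiquinone and cytochrome c to oxygen, and complexes I, III and IV pump protons that drive the ATP synthase. Complex II is built wholly from nuclear genes, whereas the other complexes combine mitochondrial with nuclear gene products. Resting lymphocytes rely largely on this pathway for ATP, and both cytotoxic T cells and NK cells raise it together with glycolysis upon activation.

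The libraries held 20957384 to 26144478 counts for CD8+ T cells. For NK cells they held 32848432 to 38573550. Cell identity markers separated the groups: Cd8b1 was at 0 in all 3 NK cell libraries and Ncr1, which encodes NKp46, at 0 in all 3 CD8+ T cell libraries. The 5 B cell markers summed to 351, 184 and 37.2 CPM (counts scaled to a common library total) in CD8 libraries 1, 2 and 3, against 8.04, 47.1 and 0.214 in NK cells. The part of B cell RNA in the results was not tested, and the calls without CD8 library 1 are given below. Tyk2 itself still had reads, with 105, 919 and 554 counts for CD8+ T cells and 3864, 4245 and 3207 for NK cells, and without wild-type libraries these do not test the knockout label. Replicates varied more in CD8+ T cells than in NK cells, with biological coefficients of variation of 140% and 84.7%. The labels do not say whether the pools came from separate litters, so p-values measure only the spread between these libraries. In bulk RNA, less RNA per cell and fewer cells of a kind cannot be told apart.

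The first question for the 13 mitochondrial genes was which of them the files could measure, because the authors kept only reads with a single alignment and the nuclear genome carries copies of mitochondrial DNA. Reads were 50 bases long, so each annotated transcript was divided into 50-base windows, and each window was looked up in the transcripts of all other genes of GENCODE M21 (GRCm38), pseudogenes included. Windows were pooled over all transcripts of a gene, so a percentage need not hold for each of them. A stretch on chromosome 1, chr1:24611535-24616197, holds 7 unprocessed pseudogenes in the order of their mitochondrial counterparts from mt-Co1 to mt-Nd4. Of these, Gm28661 matched mt-Co2 over 681 bases with 0 differences, Gm10925 matched mt-Atp6 over 678 bases, Gm28437 mt-Co3 over 783, Gm10222 mt-Nd4l over 294 and Gm28439 the start of mt-Nd4 over 876, each with 0 differences. Gm28438 differed from mt-Nd3 at 1 of 345 bases, and Gm29216 from mt-Co1 at 6 of 492.

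The following 100-base stretches of mitochondrial DNA (GENCODE transcripts, GRCm38) show the difference between genes that could and could not be counted. Capitals mark bases that lie in a 50-base window also present in another annotated gene. Lower case marks bases in no such window, and copies outside annotated transcripts were not searched. For mt-Co2 the first 100 bases of the gene are shown, for mt-Co1 and mt-Nd4 the edge of the longest shared stretch, and for mt-Nd1 the first 100 bases, in which no window was shared.
mt-Co2 (chrM:7013-7112, plus strand): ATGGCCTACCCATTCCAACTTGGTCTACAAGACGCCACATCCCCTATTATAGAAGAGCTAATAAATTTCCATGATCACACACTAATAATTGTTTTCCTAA
mt-Co1 (chrM:6344-6443, plus strand): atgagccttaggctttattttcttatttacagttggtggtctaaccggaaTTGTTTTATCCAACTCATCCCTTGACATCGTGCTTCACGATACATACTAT
mt-Nd4 (chrM:10993-11092, plus strand): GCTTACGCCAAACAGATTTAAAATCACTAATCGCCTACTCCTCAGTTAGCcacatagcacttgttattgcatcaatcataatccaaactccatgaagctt
mt-Nd1 (chrM:2751-2850, plus strand): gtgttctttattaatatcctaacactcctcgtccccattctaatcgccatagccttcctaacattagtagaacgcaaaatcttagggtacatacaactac

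In mt-Nd3, 6 of 299 windows were unique (2.01%), as were 3 of 248 in mt-Nd4l (1.21%), 3 of 632 in mt-Atp6 (0.475%), 1 of 735 in mt-Co3 (0.136%) and 0 of 635 in mt-Co2. All 5 genes had 0 counts in all 6 libraries. By contrast, mt-Nd1, mt-Nd6 and mt-Cytb were unique throughout, mt-Nd5 in 92.4% and mt-Nd2 in 91.8% of windows, mt-Co1 in 48.9% and mt-Nd4 in 37.8%, and these 7 genes had between 3809 and 278390 normalised counts (counts scaled by TMM factors to the mean library). The exception was mt-Atp8, whose 155 windows were in no other annotated transcript and which nevertheless had 0 counts in every library. It starts between mt-Co2 and mt-Atp6, which are 230 bases apart, and 21.1% of its bases overlap mt-Atp6. The copies of mt-Co2 and mt-Atp6 on chromosome 1 are 233 bases apart, with no annotated gene between them, and that stretch was not searched here because it lies outside annotated transcripts. Few reads were counted for the copies: Gm28661, Gm10925, Gm28437, Gm10222 and Gm28439 had at most 7 counts in any library. Gm29216, the copy of part of mt-Co1, had at most 18, and Gm28438, the copy of mt-Nd3, had 51, 133 and 18 counts for CD8+ T cells and 324, 353 and 301 for NK cells. For the 5 genes with shared windows, a count of 0 does not measure their RNA; why mt-Atp8 was at 0 was not tested. Complex V was thus left without a measured mitochondrial gene.

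**Figure D1:**
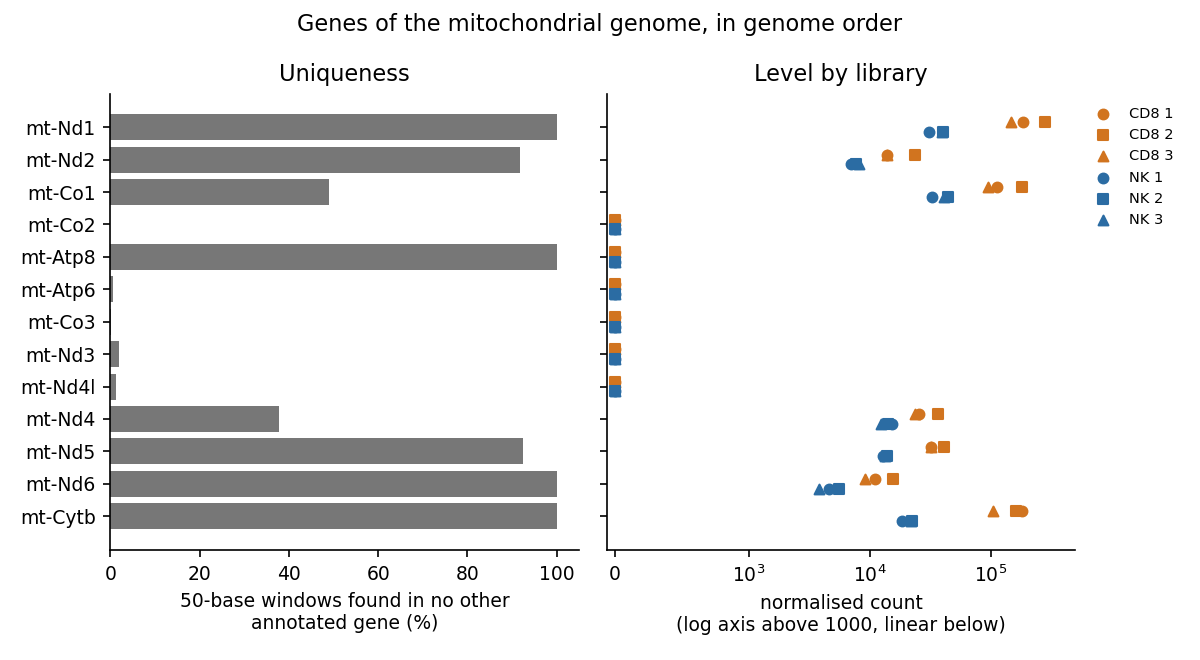
The 13 protein-coding genes of the mitochondrial genome in genome order. Bars give the percentage of each gene's 50-base windows found in no other annotated gene, and points give normalised counts in each of the 6 libraries (symlog axis, linear below 1000); the 6 genes at 0 are those with at most 2.01% unique windows and mt-Atp8, and the CD8+ T cell points lie to the right of the NK cell points for all 7 others.

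By genome of origin, the measurable mitochondrial genes took a larger share of the library in CD8+ T cells, whereas the shares of the nuclear genes overlapped. The mitochondrial genes held 2.18, 2.85 and 1.68% of all counts in the CD8+ T cell libraries but 0.380, 0.458 and 0.414% in the NK cell libraries, or 2.24% ± 0.589 (SD, n = 3) against 0.417% ± 0.0389 (SD, n = 3). The groups did not overlap. The nuclear genes held 2.30, 2.98 and 2.58% for CD8+ T cells and 2.44, 2.60 and 2.60% for NK cells, or 2.62% ± 0.342 (SD, n = 3) against 2.55% ± 0.0926 (SD, n = 3), and the groups overlapped. Mitochondrial counts were 0.947, 0.956 and 0.649 times the nuclear counts in CD8+ T cells and 0.156, 0.176 and 0.159 times in NK cells. No test was made on such sums.

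**Figure D2:**
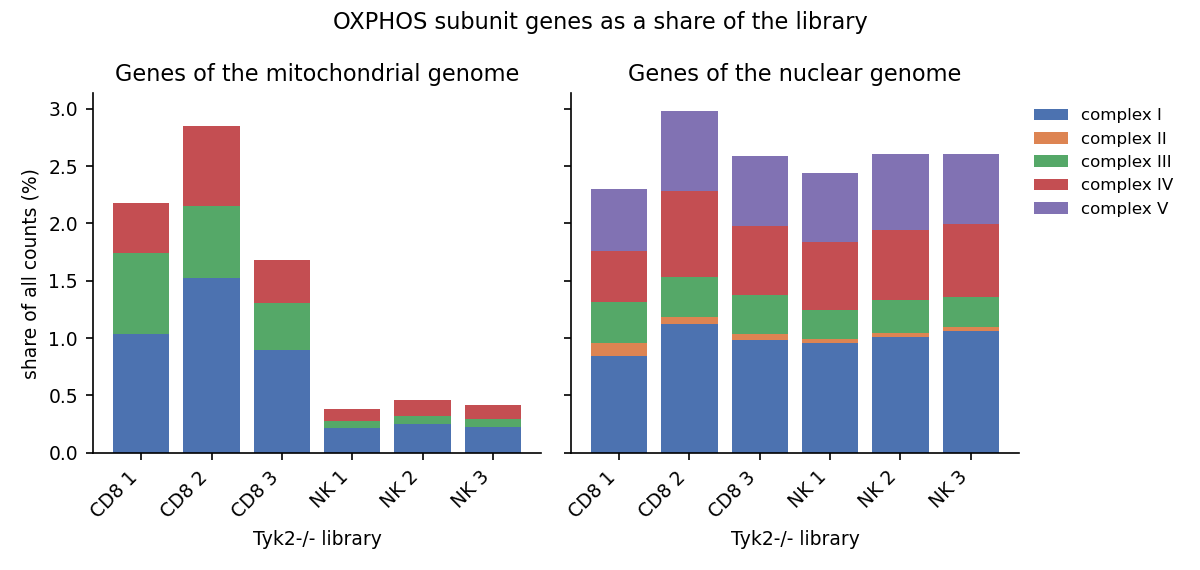
Share of all counts (%, stacked by complex) taken by OXPHOS genes of the mitochondrial and the nuclear genome in each of the 6 Tyk2-/- libraries. The mitochondrial bars run from 1.68% to 2.85% in CD8+ T cells but only from 0.380% to 0.458% in NK cells, and the nuclear bars of the cell types overlap.

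Split by complex, the nuclear genes of complex I held 0.843, 1.12 and 0.980% of counts for CD8+ T cells and 0.954, 1.01 and 1.06% for NK cells. Those of complex IV held 0.445, 0.749 and 0.606% against 0.592, 0.614 and 0.632%, and those of complex V held 0.542, 0.702 and 0.607% against 0.607, 0.659 and 0.607%. In all 3 complexes the groups overlapped. The 8 nuclear genes of complex III held 0.355, 0.352 and 0.338% for CD8+ T cells and 0.249, 0.286 and 0.265% for NK cells, with no overlap. The 4 genes of complex II held 0.119, 0.0565 and 0.0540% for CD8+ T cells and 0.0397, 0.0364 and 0.0337% for NK cells, also without overlap. CD8 library 1, the one with the most B cell marker counts, was the highest. With the 100 most abundant nuclear genes of each library left out of the total, the shares of complexes I and V lay wholly higher in NK cells and those of complex III overlapped, so the order of these nuclear shares depended on the denominator.

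Gene by gene, 86 of the 98 passed the filter on low values (10 normalised counts on average), and the other 12 were at 0 in all 6 libraries. Of the 86, 22 were called at an adjusted p below 0.05 by edgeR (quasi-likelihood test), where p-values were adjusted over all 14062 genes tested (Benjamini-Hochberg). Of those genes 11.4% were called. Of the members, 7 were called higher in NK cells and 15 lower, against 6.24% and 5.14% of all genes tested. The mitochondrial genome supplied 7 of those 15: all 7 measurable genes were called, whereas 15 of 79 nuclear genes were, 7 higher in NK cells and 8 lower. In 51 members the libraries of the cell types were fully separated, 26 with NK cells above and 25 with NK cells below, beside 25.5% and 16.1% of all genes tested. The median log2 fold change (NK over CD8+ T cells) was 0.08 for the nuclear genes and -1.39 for the mitochondrial genes, beside 0.10 for all genes tested. Without CD8 library 1 the count of calls was again 22, 20 of them shared, beside 11.8% of all genes. Leaving out an NK cell library lowered it to 6, 6 and 7 (without library 1, 2 and 3), and 6 genes were called in every such fit: Atp5g1, Cox7a2l, Ndufb7, mt-Cytb, mt-Nd1 and mt-Nd5. Of all genes, 3.49%, 3.54% and 3.46% were called in those fits. Without CD8 library 2 it was 31, beside 13.9% of all genes, and DESeq2's Wald test called 38 members, 19 in each direction, beside 29.6%.

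**Figure D3:**
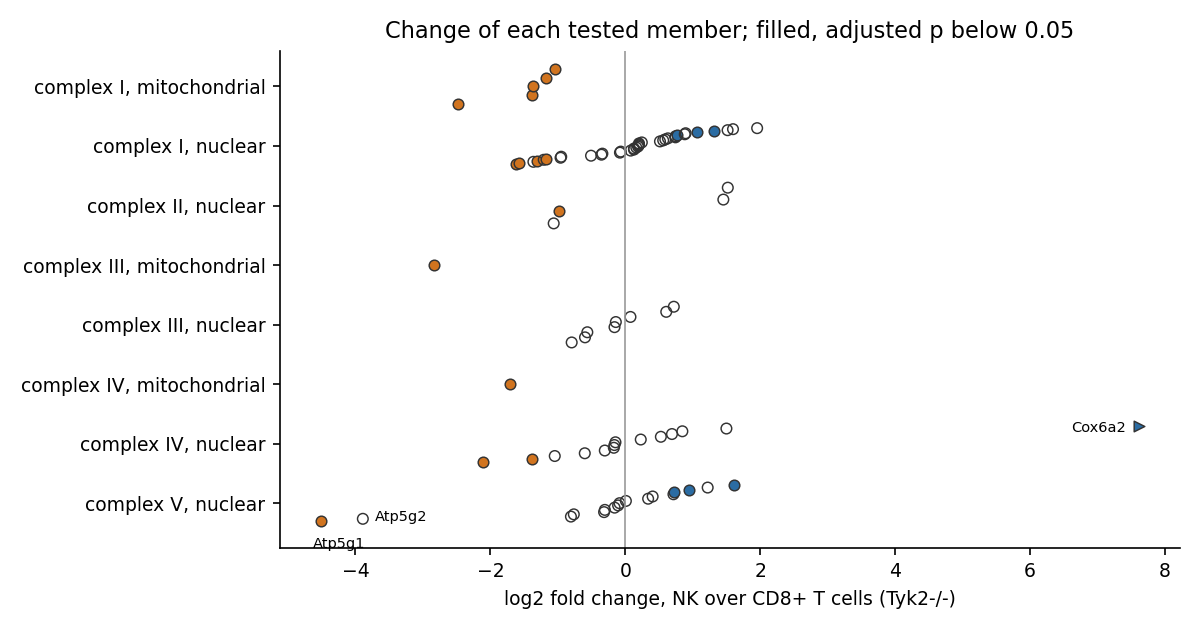
Log2 fold change (NK over CD8+ T cells, x axis) of each of the 86 tested members by complex and genome of origin; filled points had an adjusted p below 0.05 (orange, higher in CD8+ T cells; blue, higher in NK cells), and the vertical offset within a row only separates points. All mitochondrial points lie between -2.83 and -1.04, nuclear points lie on both sides of 0, and Cox6a2 is drawn as a triangle at its lower bound of 7.61.

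Among the mitochondrial genes, the difference between cell types was largest for mt-Cytb and mt-Nd1. For mt-Cytb, the mitochondrial subunit of complex III that carries both b haems, normalised counts were 181421, 162085 and 103680 in CD8+ T cells against 18502, 22453 and 21793 in NK cells. This was 7.13-fold higher in CD8+ T cells (log2 fold change -2.83 ± 0.24 SE, adjusted p = 0.00125), and the groups were far apart. For mt-Nd1, which lines the ubiquinone site of complex I, they were 184007, 278390 and 147702 in CD8+ T cells against 30687, 39865 and 39114 in NK cells (log2 fold change -2.48 ± 0.27 SE, adjusted p = 0.00315). That is 5.56-fold higher in CD8+ T cells. For mt-Co1, the catalytic subunit of complex IV, they were 111512, 180934 and 94568 in CD8+ T cells against 32814, 44473 and 40854 in NK cells (log2 fold change -1.71 ± 0.27 SE, adjusted p = 0.0131), again with every CD8+ T cell library above every NK cell library.

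The remaining 4 complex I genes differed less. The counts of mt-Nd5, a proton-pumping subunit at the tip of the membrane arm, were 31813, 40607 and 31981 in CD8+ T cells against 12832, 13762 and 13344 in NK cells (log2 fold change -1.39 ± 0.16 SE, adjusted p = 0.00372). Those of mt-Nd2, another pumping subunit, were 13899, 23665 and 13862 in CD8+ T cells against 6983, 7714 and 8123 in NK cells (log2 fold change -1.17 ± 0.26 SE, adjusted p = 0.0356). Those of mt-Nd4, which also pumps protons, were 25280, 36709 and 23520 in CD8+ T cells against 15133, 14105 and 12248 in NK cells (log2 fold change -1.04 ± 0.22 SE, adjusted p = 0.0305). All 3 were higher in CD8+ T cells without overlap. For mt-Nd6, the only protein-coding gene on the other strand of mitochondrial DNA, counts were 11037, 15585 and 9102 in CD8+ T cells against 4559, 5505 and 3809 in NK cells (log2 fold change -1.36 ± 0.27 SE, adjusted p = 0.0259). The library kit does not mark strand, so reads of mt-Nd6 and of transcripts antisense to it cannot be told apart. The calls of mt-Co1, mt-Nd2, mt-Nd4 and mt-Nd6 were lost whenever an NK cell library was left out, with the direction kept.

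The mix of mitochondrial genes differed too. As a share of the counts of all mitochondrial members, mt-Cytb took 26.3% ± 5.49 (SD, n = 3) for CD8+ T cells and 15.4% ± 0.256 for NK cells, and mt-Nd1 35.1% ± 2.42 and 26.8% ± 1.42. The share of mt-Co1 was 22.2% ± 2.28 for CD8+ T cells and 28.8% ± 1.60 for NK cells, and that of mt-Nd4 5.01% ± 0.511 and 10.3% ± 1.93. Thus mt-Cytb and mt-Nd1 made up less of the mitochondrial count of NK cells. By contrast, mt-Co1, mt-Nd4, mt-Nd2, mt-Nd5 and mt-Nd6 made up more of it, in each case without overlap of the libraries. Such shares are not independent, because a smaller share of some genes raises that of the others. As CPM per kilobase of unique windows, the order of the mean levels in CD8+ T cells was mt-Nd1 (8726), mt-Co1 (6875), mt-Cytb (5308), mt-Nd4 (2214), mt-Nd6 (988), mt-Nd5 (828) and mt-Nd2 (736). In NK cells it was mt-Co1 (1649), mt-Nd1 (1232), mt-Nd4 (846), mt-Cytb (585), mt-Nd6 (302), mt-Nd2 (256), with mt-Nd5 last.

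The ribosomal RNAs of the same genome, which are no members, did not move together. Counts of mt-Rnr1, the small-subunit rRNA, were 127921, 147148 and 92081 for CD8+ T cells and 14975, 12207 and 16026 for NK cells (log2 fold change -3.09 ± 0.23 SE, adjusted p = 0.000765 by edgeR). Counts of mt-Rnr2, the large-subunit rRNA downstream of it, were 107404, 314331 and 101164 for CD8+ T cells and 367065, 314840 and 382493 for NK cells (log2 fold change 1.03 ± 0.45 SE, adjusted p = 0.179). The first was higher in every CD8+ T cell library, like the 7 members, whereas the point estimate of the second was in the other direction and did not pass the test. As 100% and 99.0% of their windows were unique, both could be counted.

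Nuclear genes of complex I went both ways. Of 36 tested, 3 were called higher in NK cells and 4 lower, and the median log2 fold change was 0.19. Ndufb7, a supernumerary subunit of the distal membrane arm, had the clearest rise in NK cells, with normalised counts of 13342, 12622 and 11703 in CD8+ T cells against 30173, 31306 and 32719 in NK cells (log2 fold change 1.32 ± 0.14 SE, adjusted p = 0.00256). It was 2.50-fold higher, kept its call without each of the 6 libraries in turn, and had the highest level per length of the nuclear complex I genes in NK cells (2655 ± 25.9 TPM, SD, n = 3; TPM, counts per kilobase of exon, scaled to the same total over protein-coding genes in each library).

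The nuclear core subunits form the arm that oxidises NADH and reduces ubiquinone. Among them Ndufs7, which holds the last cluster of the chain, had counts of 7657, 12848 and 9181 in CD8+ T cells against 17587, 20507 and 24007 in NK cells (log2 fold change 1.06 ± 0.24 SE, adjusted p = 0.0404). It was higher in NK cells without overlap, and the call was lost when CD8 library 1, CD8 library 3 or any NK cell library was left out. The following 5 core subunits did not pass the test. Ndufs8 had 9469, 9746 and 2326 in CD8+ T cells against 11881, 13476 and 14688 in NK cells (log2 fold change 0.89 ± 0.51 SE, adjusted p = 0.274), with CD8 library 3 far below the rest. Ndufs1, the largest subunit of the NADH-oxidising module, had 1960, 2194 and 2089 in CD8+ T cells against 813, 858 and 1028 in NK cells (log2 fold change -1.21 ± 0.32 SE, adjusted p = 0.0558). For Ndufv1, Ndufv2 and Ndufs3 the log2 fold changes were 0.16 ± 0.41, -0.51 ± 0.18 and 0.13 ± 0.26 (SE), with adjusted p of 0.829, 0.111 and 0.778.

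The 4 nuclear complex I genes higher in CD8+ T cells were all accessory subunits. Ndufa12 had normalised counts of 3990, 5654 and 6698 in CD8+ T cells against 2136, 1425 and 1764 in NK cells (log2 fold change -1.62 ± 0.30 SE, adjusted p = 0.0205), and 82.3% of its windows were unique. Ndufa8 had 5111, 4177 and 3778 in CD8+ T cells against 1397, 1430 and 1566 in NK cells (log2 fold change -1.57 ± 0.25 SE, adjusted p = 0.0117). In both genes the lowest CD8+ T cell library was above the highest NK cell library. Ndufa3, which had the highest level per length of nuclear complex I genes in CD8+ T cells (2135 ± 440 TPM, SD, n = 3), had 12198, 20846 and 15953 in CD8+ T cells against 5684, 7008 and 7001 in NK cells (log2 fold change -1.32 ± 0.24 SE, adjusted p = 0.0203). Ndufa7 had 5923, 6878 and 7055 in CD8+ T cells against 2841, 2810 and 3182 in NK cells (log2 fold change -1.17 ± 0.20 SE, adjusted p = 0.0155). These folds were 3.07, 2.97, 2.49 and 2.25 for Ndufa12, Ndufa8, Ndufa3 and Ndufa7. The highest point estimate of the complex belonged to Ndufs6, a zinc-binding subunit, which did not pass: its counts were 1276, 5287 and 5082 in CD8+ T cells against 14338, 14635 and 16171 in NK cells (log2 fold change 1.95 ± 0.52 SE, adjusted p = 0.0585). Per length of merged exons, the lowest levels above 0 were those of Ndufb2 in CD8+ T cells (18.8 ± 4.45 TPM) and Ndufb4 in NK cells (11.0 ± 4.13 TPM, both SD, n = 3). Per length of the shortest principal transcript, Ndufb4 was the lowest in both (31.6 and 9.28 TPM), and Ndufb2 stood at 146 TPM in CD8+ T cells. For Ndufb4, 341 of 1866 windows over all annotated transcripts were shared with other genes (81.7% unique). The share within its principal transcript was not measured, so its low level need not mean little RNA. Ndufa4l2, a hypoxia-linked relative of Ndufa4, was at 0 in all libraries, whereas Ndufa4 had 8911, 13049 and 11034 in CD8+ T cells against 11038, 11542 and 12299 in NK cells (log2 fold change 0.08 ± 0.19 SE, adjusted p = 0.820).

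In complex II, 1 of 4 genes was called. Sdhb, the iron-sulphur subunit, had normalised counts of 8453, 6307 and 5806 in CD8+ T cells against 3483, 3562 and 3347 in NK cells, 1.98-fold higher in CD8+ T cells (log2 fold change -0.98 ± 0.22 SE, adjusted p = 0.0383), a call that was lost without CD8 library 1 or any NK cell library. Sdha, the flavoprotein that oxidises succinate, had 19890, 8142 and 7083 in CD8+ T cells against 5785, 5296 and 5747 in NK cells (log2 fold change -1.06 ± 0.41 SE, adjusted p = 0.142), with CD8 library 1 above all others. Of the membrane anchors, Sdhc had 1928, 170 and 762 in CD8+ T cells against 3328, 2382 and 2125 in NK cells (log2 fold change 1.45 ± 0.80 SE, adjusted p = 0.258), and Sdhd had raw counts of 207, 2 and 6 for CD8+ T cells and 101, 628 and 140 for NK cells (log2 fold change 1.52 ± 1.86 SE, adjusted p = 0.628). Per length, Sdhb was the highest of the 4 in both cell types (449 ± 112 TPM in CD8+ T cells and 160 ± 11.8 TPM in NK cells, SD, n = 3) and Sdhd the lowest (5.52 ± 9.13 TPM and 10.7 ± 10.3 TPM).

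None of the 8 nuclear genes of complex III was called by edgeR, although 4 had an unadjusted p below 0.05, and DESeq2 called Uqcr10 and Uqcr11. Uqcrfs1, the Rieske iron-sulphur protein, had normalised counts of 12728, 10144 and 8448 in CD8+ T cells against 6318, 7612 and 6778 in NK cells (log2 fold change -0.60 ± 0.21 SE, adjusted p = 0.115). The core protein Uqcrc1 had 31066, 18896 and 26703 in CD8+ T cells against 24202, 30247 and 26412 in NK cells (log2 fold change 0.08 ± 0.22 SE, adjusted p = 0.851). Its partner Uqcrc2 had 8830, 6111 and 4988 in CD8+ T cells against 5519, 6228 and 6338 in NK cells (log2 fold change -0.14 ± 0.26 SE, adjusted p = 0.758). Their groups overlapped, unlike those of Uqcrfs1, and the direction of both depended on which library was left out. Small subunits lay on either side. Uqcr10 had 8939, 9035 and 7583 in CD8+ T cells against 12848, 14442 and 11643 in NK cells (log2 fold change 0.61 ± 0.17 SE, adjusted p = 0.0680). Uqcrq had 12767, 15759 and 16720 in CD8+ T cells against 9218, 10015 and 11403 in NK cells (log2 fold change -0.56 ± 0.18 SE, adjusted p = 0.0901). Uqcrb was the lowest per length in both cell types, with 211 ± 82.3 TPM in CD8+ T cells and 87.3 ± 14.8 TPM in NK cells (SD, n = 3), and 74.6% of its windows were unique. The highest per length of merged exons were Uqcrh in CD8+ T cells (2191 ± 621 TPM) and Uqcr10 in NK cells (1580 ± 215 TPM). Per length of the shortest principal transcript, Uqcrq (2228 TPM) stood above Uqcrh (1765 TPM) in CD8+ T cells, so the order there depended on the length used.

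Of the 14 nuclear complex IV genes tested, 1 was called higher in NK cells and 2 lower. Cox7c, a small transmembrane subunit, had normalised counts of 1504, 2314 and 1667 in CD8+ T cells against 560, 343 and 367 in NK cells, 4.32-fold higher in CD8+ T cells (log2 fold change -2.11 ± 0.44 SE, adjusted p = 0.0285), with 77.9% of its windows unique. Cox7a2l, named for its likeness to Cox7a2, had 21599, 23666 and 17059 in CD8+ T cells against 7713, 7725 and 8386 in NK cells (log2 fold change -1.39 ± 0.18 SE, adjusted p = 0.00594 by edgeR). It was 2.62-fold higher in CD8+ T cells and kept its call without each library in turn, whereas Cox7c lost its call without CD8 library 2 or any NK cell library. Cox7a2, the widely expressed paralogue, had 5771, 14594 and 8635 in CD8+ T cells against 6193, 6342 and 6593 in NK cells (log2 fold change -0.60 ± 0.34 SE, adjusted p = 0.273), with overlapping groups.

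The isoform associated with heart and skeletal muscle, Cox6a2 (chr7:128205435-128206387, minus strand), was the member found in NK cells alone. Raw counts were 0, 0 and 0 for CD8+ T cells and 369, 1379 and 549 for NK cells, or 359, 1155 and 494 after normalisation. Against a floor of 3 counts per library it was at least 196-fold higher in NK cells (adjusted p = 0.0164 by edgeR, lost without any one NK cell library). The bound was 125-fold without NK library 2, which had the highest count, and the gene passed the filter only through the NK cell libraries. Its widely expressed partner Cox6a1 had 8177, 13737 and 10344 in CD8+ T cells against 9236, 9415 and 7484 in NK cells (log2 fold change -0.30 ± 0.24 SE, adjusted p = 0.433). Cox6a2 made up 3.16, 9.34 and 5.25% of the summed level per length of the pair in the NK cell libraries. The gene lies inside the span of Itgad (chr7:128154376-128223816, plus strand), an integrin gene expressed by some NK cells, which was at 0 in every CD8+ T cell library and had 676, 874 and 486 in NK cells. Of the exon bases of Cox6a2, 10.3% overlap exons of Itgad, and because the kit does not mark strand, unspliced reads of Itgad and reads of Cox6a2 cannot be told apart.

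Of the other tissue isoforms of complex IV, Cox4i2, Cox7b2, Cox8b and Cox8c were at 0 in all 6 libraries. Their partners were abundant: Cox4i1, the gene with the highest level per length of all nuclear members, had 38652, 70592 and 63056 in CD8+ T cells against 96575, 98725 and 114448 in NK cells (log2 fold change 0.85 ± 0.24 SE, adjusted p = 0.0665). That corresponded to 5529 ± 1376 TPM in CD8+ T cells and 7098 ± 342 TPM in NK cells (SD, n = 3), and the libraries did not overlap although the test was not passed. Cox8a had 8871, 17187 and 13165 in CD8+ T cells against 20404, 21190 and 21780 in NK cells (log2 fold change 0.69 ± 0.25 SE, adjusted p = 0.123). Cox7b had 4302, 10098 and 7134 in CD8+ T cells against 3112, 3601 and 3720 in NK cells (log2 fold change -1.05 ± 0.33 SE, adjusted p = 0.0896). Cox7a1, the muscle form of subunit 7a, had raw counts of 0, 0 and 159 for CD8+ T cells and 67, 83 and 5 for NK cells. Cox6b2, a form best known from testis, had normalised counts of 230, 141 and 237 in CD8+ T cells against 61.3, 312 and 171 in NK cells. Its partner Cox6b1 had 10020, 15318 and 13501 in CD8+ T cells against 15359, 21208 and 19418 in NK cells. Neither tissue form passed the test (adjusted p = 0.981 for Cox7a1 and 0.939 for Cox6b2 by edgeR).

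Complex V contained the member with the largest fold difference among genes detected in both cell types. The genes Atp5g1, Atp5g2 and Atp5g3 encode the same mature subunit c, the ring that turns as protons cross the membrane, and differ in their targeting peptides. Atp5g1 had normalised counts of 4060, 6808 and 6670 in CD8+ T cells against 197, 265 and 307 in NK cells, 22.8-fold higher in CD8+ T cells (log2 fold change -4.51 ± 0.36 SE, adjusted p = 0.00102). Atp5g3 had 3297, 3484 and 3031 in CD8+ T cells against 6097, 5850 and 7031 in NK cells, 1.93-fold higher in NK cells (log2 fold change 0.95 ± 0.20 SE, adjusted p = 0.0306). Neither gene's groups overlapped, and the directions were opposite. Atp5g2 was low, with 79.5, 101 and 160 in CD8+ T cells against 6.81, 5.86 and 9.89 in NK cells (log2 fold change -3.89 ± 1.30 SE, adjusted p = 0.0984 by edgeR), and 63.3% of its windows were unique, against 88.9% for Atp5g1 and 100% for Atp5g3. These percentages cover all annotated transcripts of a gene. For Atp5g1, 542 of 4881 windows were shared, and the share within its principal transcript was not measured. Atp5g1 kept its call without each library in turn, whereas Atp5g3 lost it without CD8 library 3 or any NK cell library.

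The source of subunit c mRNA differed between the cell types. Of the counts of the 3 genes, Atp5g1 held 54.6, 65.5 and 67.6% for CD8+ T cells and 3.12, 4.32 and 4.18% for NK cells, and Atp5g3 held 44.3, 33.5 and 30.7% and 96.8, 95.6 and 95.7%. Per length of the shortest principal transcript, the share of Atp5g1 was 66.2% ± 6.58 (SD, n = 3) for CD8+ T cells and 4.60% ± 0.777 (SD, n = 3) for NK cells. Per length of merged exons, which come to 4912 bases for Atp5g1, it was 20.2% ± 4.51 (SD, n = 3) and 0.591% ± 0.104 (SD, n = 3); the level of the share thus depended on the length used, and its order between cell types did not. Summed over the 3 genes, normalised counts were 7436, 10393 and 9861 for CD8+ T cells and 6301, 6121 and 7348 for NK cells. Per length, the order of that sum depended on the length used: it was 873 ± 117 TPM in CD8+ T cells and 413 ± 26.6 TPM in NK cells by the shortest principal transcript, and 435 ± 5.84 and 463 ± 29.7 TPM by merged exons (SD, n = 3).

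**Figure D4:**
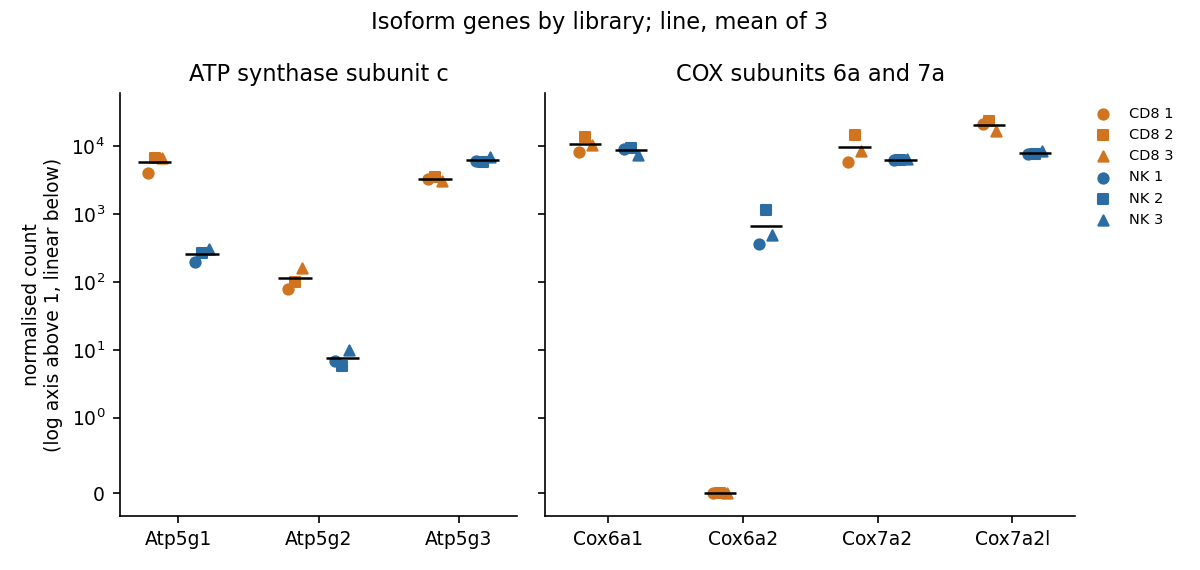
Normalised counts (log axis above 1, linear below) of the subunit c genes and of complex IV isoforms in each library, with the mean of 3 as a line. Atp5g1 lies at 4060 to 6808 in CD8+ T cells but 197 to 307 in NK cells while Atp5g3 lies higher in NK cells, and Cox6a2 is at 0 in the 3 CD8+ T cell libraries.

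Of the F1 head, Atp5b, the catalytic beta subunit, had normalised counts of 15543, 17100 and 18286 in CD8+ T cells against 26372, 30135 and 27917 in NK cells, 1.66-fold higher in NK cells (log2 fold change 0.73 ± 0.15 SE, adjusted p = 0.0259). Atp5d, the delta subunit of the central stalk, had 11836, 10014 and 17771 in CD8+ T cells against 41500, 41839 and 37185 in NK cells, 3.04-fold higher (log2 fold change 1.60 ± 0.24 SE, adjusted p = 0.0103). In both genes all NK cell libraries were above all CD8+ T cell libraries, and both kept their calls without each CD8+ T cell library. Atp5b lost its call without any one NK cell library, and Atp5d without NK library 1 or 2. The alpha subunit, Atp5a1, had 38301, 27237 and 31980 in CD8+ T cells against 39728, 46219 and 37375 in NK cells (log2 fold change 0.34 ± 0.18 SE, adjusted p = 0.237), and its groups overlapped. Atp5j2, a small subunit of the membrane part, lay just outside the threshold, with 5805, 9841 and 4593 in CD8+ T cells against 14384, 16151 and 16659 in NK cells (log2 fold change 1.22 ± 0.30 SE, adjusted p = 0.0501), and it was called with RLE in place of TMM factors. Per length, Atp5e was the highest gene of the complex in CD8+ T cells (2024 ± 359 TPM) and Atp5d in NK cells (1500 ± 164 TPM, both SD, n = 3), where Atp5e had 1451 ± 43.0 TPM. By the shortest principal transcript these levels in NK cells were 1923 TPM for Atp5d and 1224 TPM for Atp5e.

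At the low end of the complex, Atp5l, a membrane subunit, had 8, 28 and 3 raw counts for CD8+ T cells and 10, 18 and 3 for NK cells. Over all its annotated transcripts 91.3% of its windows were unique, with 566 of 6487 shared, and 24.4% of its exon bases overlapped another annotated gene. The share within its principal transcript was not measured, so the low count of Atp5l need not mean little RNA. A second gene identifier named Atp5o was at 0 in all libraries, and all of its exon bases overlap other genes, while the main Atp5o had 5224, 7547 and 8604 in CD8+ T cells against 5862, 6818 and 7177 in NK cells (log2 fold change -0.11 ± 0.24 SE, adjusted p = 0.808).

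Members varied more between the CD8+ T cell libraries than between the NK cell libraries. Among the 71 members that averaged at least 1000 normalised counts in both cell types, the coefficient of variation was larger in CD8+ T cells for 64 and larger in NK cells for 7. Its median was 26.1% for CD8+ T cells and 10.1% for NK cells, beside 35.4% and 14.9% for all 3202 genes at such levels. There were 3 members nearly absent from one library and abundant in another of the same cell type, always CD8+ T cells: Sdhd (207, 2 and 6 raw counts), Cox7a1 (0, 0 and 159) and Atp5s (1, 423 and 0, against 119, 377 and 286 in NK cells). Over all genes, 2525 showed such a split in CD8+ T cells (at most 3 counts in a library and at least 100 in another) and 712 in NK cells. Each library was made from 500 pg of RNA.

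**Figure D5:**
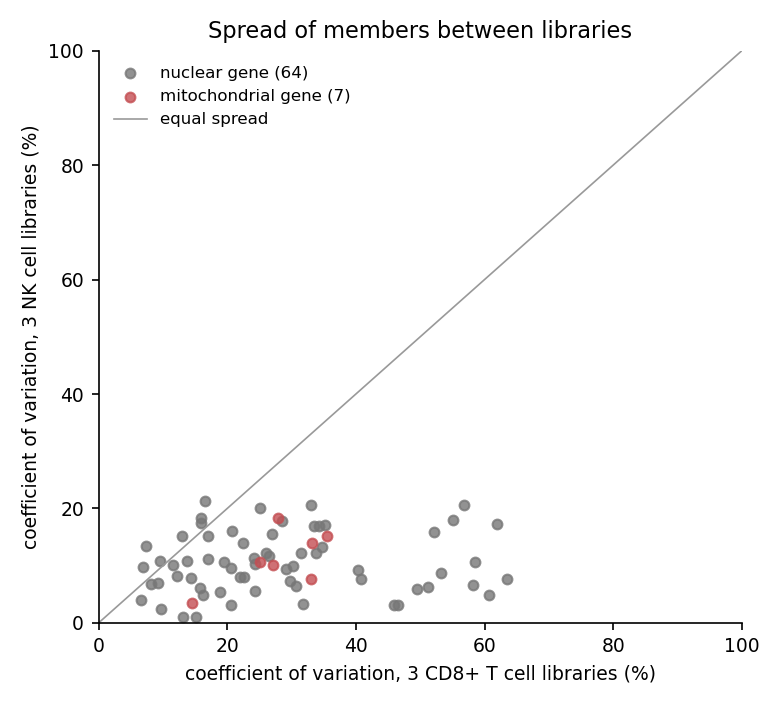
Coefficient of variation (%) over the 3 NK cell libraries (y axis) against that over the 3 CD8+ T cell libraries (x axis) for the 71 members averaging at least 1000 normalised counts in both. Points below the diagonal, 64 of 71, varied more between CD8+ T cell libraries.

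Most nuclear members belonged to the more abundant genes of both cell types. Their median level per length was 424 TPM in CD8+ T cells and 340 TPM in NK cells, and 64 and 59 of the 85 stood at or above the 95th percentile of protein-coding genes. That percentile includes genes without a count, and the median of all protein-coding genes was 0 TPM in CD8+ T cells and 0.133 TPM in NK cells. Across the 79 nuclear members with a count, Spearman's rho between the mean levels of the cell types was 0.866, beside 0.809 for the 13118 protein-coding genes with a count; genes of a library share its depth and are not independent replicates.

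Genes around the complexes were taken from lists of assembly factors, electron carriers, mitochondrial gene expression, regulators, the TCA cycle and glycolysis. Of 14 complex I assembly factors tested, 1 was called, Tmem126b, with 2211, 2692 and 1492 in CD8+ T cells against 602, 657 and 561 in NK cells (log2 fold change -1.81 ± 0.38 SE, adjusted p = 0.0308). Of 6 for complex III, 1 was called, Lyrm7, with 1438, 1423 and 554 in CD8+ T cells against 174, 237 and 133 in NK cells (log2 fold change -2.65 ± 0.65 SE, adjusted p = 0.0478). Both were higher in CD8+ T cells. For complex IV, 2 of 16 were called, both higher in NK cells. Cox19, a copper-handling factor, had 805, 817 and 828 in CD8+ T cells against 2113, 2065 and 2036 in NK cells (log2 fold change 1.34 ± 0.31 SE, adjusted p = 0.0411). Coa5 had 883, 802 and 818 in CD8+ T cells against 2690, 1958 and 3725 in NK cells (log2 fold change 1.74 ± 0.35 SE, adjusted p = 0.0268). None of the 4 for complex II or the 3 for complex V was called. The median log2 fold changes were -0.47, 0.15, -0.27, 0.65 and -1.46 for complexes I to V, beside 0.10 over all genes tested.

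Of 6 electron carriers and subunits outside the symbol rule, 3 were called, beside 11.4% of all genes tested. Cycs, the cytochrome c that carries electrons from complex III to IV, had normalised counts of 2371, 3661 and 2146 in CD8+ T cells against 106, 230 and 189 in NK cells, 15.6-fold higher in CD8+ T cells (log2 fold change -3.96 ± 0.49 SE, adjusted p = 0.00515), with 73.9% of its windows unique. The electron transfer flavoprotein, which feeds electrons from fatty acid oxidation to ubiquinone, had its 2 subunits on opposite sides. Etfa had 4670, 2053 and 1709 in CD8+ T cells against 790, 538 and 724 in NK cells (log2 fold change -2.04 ± 0.49 SE, adjusted p = 0.0448). Etfb had 481, 1139 and 495 in CD8+ T cells against 3464, 3650 and 4169 in NK cells (log2 fold change 2.41 ± 0.43 SE, adjusted p = 0.0191). Neither gene's groups overlapped. Cyc1, the cytochrome c1 of complex III, and Ndufab1 of complex I had log2 fold changes of -0.34 ± 0.20 and -1.28 ± 0.71 (SE) and were not called.

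Among 19 tested genes of mitochondrial gene expression, 2 were called, both higher in CD8+ T cells, a share near the 11.4% of all genes tested. Tfam, which packages mitochondrial DNA and starts its transcription, had 2449, 1310 and 1604 in CD8+ T cells against 402, 491 and 600 in NK cells (log2 fold change -1.85 ± 0.44 SE, adjusted p = 0.0434). Twnk, the helicase of mitochondrial DNA replication, had 2285, 1544 and 1978 in CD8+ T cells against 318, 366 and 454 in NK cells (log2 fold change -2.35 ± 0.41 SE, adjusted p = 0.0155). The mitochondrial RNA polymerase Polrmt had 1255, 1754 and 105 in CD8+ T cells against 847, 1477 and 566 in NK cells (log2 fold change -0.11 ± 0.95 SE, adjusted p = 0.959), with CD8 library 3 far below the others. The median log2 fold change of the list was -0.59. Of 10 nuclear regulators, 1 was called, beside 11.4% of all genes tested. This was Ppargc1a, a coactivator of mitochondrial biogenesis, with raw counts of 0 in each CD8+ T cell library and 217, 137 and 282 in NK cells. It was at least 56.5-fold higher in NK cells against the floor of 3 counts per library (adjusted p = 0.0397 by edgeR). It passed the filter only through the NK cell libraries. Nrf1, the factor named nuclear respiratory factor 1, and Gabpa, a subunit of nuclear respiratory factor 2, were not called (log2 fold change -0.79 ± 0.36 SE, adjusted p = 0.198, and log2 fold change -3.15 ± 0.85 SE, adjusted p = 0.0612); the median of the list was -0.88.

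In the TCA cycle, 3 of 13 genes were called and all 3 were higher in CD8+ T cells, of which Idh3a and Mdh2 are described. Of all genes tested, 11.4% were called, 5.14% higher in CD8+ T cells. Idh3a, the catalytic subunit of NAD-dependent isocitrate dehydrogenase, had 8189, 6063 and 6141 in CD8+ T cells against 1792, 2299 and 1776 in NK cells (log2 fold change -1.80 ± 0.25 SE, adjusted p = 0.00707). Mdh2, the mitochondrial malate dehydrogenase, had 30489, 17659 and 24474 in CD8+ T cells against 10531, 11193 and 9714 in NK cells (log2 fold change -1.21 ± 0.23 SE, adjusted p = 0.0223). The groups of neither gene overlapped, and the median of the list was -0.50. Of 20 glycolysis genes 2 were called in opposite directions, a share near the 11.4% of all genes tested, with a median of 0.11. Tpi1, triosephosphate isomerase, had 796, 3263 and 765 in CD8+ T cells against 17292, 19532 and 18252 in NK cells (log2 fold change 3.51 ± 0.64 SE, adjusted p = 0.0198). Pgk1, phosphoglycerate kinase, had 1658, 1535 and 765 in CD8+ T cells against 166, 206 and 216 in NK cells (log2 fold change -2.75 ± 0.56 SE, adjusted p = 0.0274). Of 16 called genes on these lists, Cox6a2 included, 13, 13 and 15 stayed called without CD8 library 1, 2 and 3, and 1, 2 and 1 without NK library 1, 2 and 3, with Cycs called in every such fit.

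Promoters were compared for a feature the symbols do not use. RefSeq windows of 300 bases (250 before to 50 after the start, GRCm38.p6) were found for 69 of the 85 nuclear members, in 68 gene records, and none was found for Cox6a2. Motifs were searched as exact letters on both strands: NRF1 as GCGCATGCG, GABP/ETS as CCGGAAGT, YY1 as AAGATGGCG and the oestrogen-related receptors (ERR) as TCAAGGTCA. The NRF1 letters were in 8 of 68 member promoters (11.8%) and in 1.95% of all 27025 genes with a window. YY1 letters were in 7 (10.3%, beside 1.64%), GABP/ETS letters in 5 (7.35%, beside 4.31%) and ERR letters in 2 (2.94%, beside 0.466%). Any of the 4 was in 21 of 68, or 30.9%, and in 7.93% of all genes. Of 5 promoters of genes called higher in NK cells, Ndufs7 held YY1 and Atp5g3 held ERR letters, and of 8 of genes called higher in CD8+ T cells, Ndufa8 held NRF1 letters.

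The promoters of the 3 subunit c genes are shown because their genes went in opposite directions, and those of Ndufs7 and Ndufa8 because they hold the other matches among called genes; capitals mark the matches. Atp5g1 held none of the 4 motifs, in Atp5g2 the NRF1 letters began 42 bases before the start and read on both strands, and in Atp5g3 the ERR letters began 52 bases before the start on the opposite strand. In Ndufs7 the YY1 letters began at base 25 of the transcript, and in Ndufa8 the NRF1 letters began 9 bases before the start on the opposite strand. A match does not show binding, and no match says only that these letters are not in this window.
Atp5g1 (chr11:96075582-96075881, minus strand): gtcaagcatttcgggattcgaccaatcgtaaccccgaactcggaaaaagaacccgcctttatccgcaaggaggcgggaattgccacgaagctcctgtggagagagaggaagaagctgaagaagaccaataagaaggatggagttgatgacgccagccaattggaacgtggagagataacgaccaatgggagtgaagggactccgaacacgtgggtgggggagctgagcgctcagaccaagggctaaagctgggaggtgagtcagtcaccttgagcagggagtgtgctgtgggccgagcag
Atp5g2 (chr15:102670998-102671297, minus strand): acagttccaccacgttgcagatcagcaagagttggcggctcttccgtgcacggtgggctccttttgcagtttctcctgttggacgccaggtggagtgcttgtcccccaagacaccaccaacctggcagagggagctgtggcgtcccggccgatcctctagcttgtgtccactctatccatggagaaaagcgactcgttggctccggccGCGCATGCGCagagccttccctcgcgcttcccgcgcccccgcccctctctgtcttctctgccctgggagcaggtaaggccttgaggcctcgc
Atp5g3 (chr2:73911277-73911576, minus strand): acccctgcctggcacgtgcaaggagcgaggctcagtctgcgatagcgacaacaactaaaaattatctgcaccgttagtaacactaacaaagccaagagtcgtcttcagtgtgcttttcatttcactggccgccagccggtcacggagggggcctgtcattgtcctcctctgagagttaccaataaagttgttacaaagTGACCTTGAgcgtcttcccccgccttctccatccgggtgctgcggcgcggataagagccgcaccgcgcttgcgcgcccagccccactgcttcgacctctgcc
Ndufs7 (chr10:80249199-80249498, plus strand): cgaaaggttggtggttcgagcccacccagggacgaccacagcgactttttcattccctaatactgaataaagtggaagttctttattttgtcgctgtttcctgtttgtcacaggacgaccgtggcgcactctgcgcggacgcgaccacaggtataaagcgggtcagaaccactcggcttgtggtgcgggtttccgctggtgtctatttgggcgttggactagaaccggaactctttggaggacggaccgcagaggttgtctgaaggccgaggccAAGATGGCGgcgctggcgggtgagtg
Ndufa8 (chr2:36049289-36049588, minus strand): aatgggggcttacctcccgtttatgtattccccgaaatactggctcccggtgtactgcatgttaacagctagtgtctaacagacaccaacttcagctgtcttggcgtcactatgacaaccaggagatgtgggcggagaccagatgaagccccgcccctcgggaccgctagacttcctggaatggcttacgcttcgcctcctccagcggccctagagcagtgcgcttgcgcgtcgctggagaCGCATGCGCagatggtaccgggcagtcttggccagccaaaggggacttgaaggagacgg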

How the data were processed

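RNA was taken from spleen cells purified by flow cytometry and made into cDNA by a full-length protocol that does not mark strand. The authors trimmed the 50-base single-end reads (Trimmomatic 0.32), aligned them to mm10/GRCm38 (STAR 2.7.1) and counted reads with a single alignment in exons, in R 3.2.3, per the submitters' processing notes and the methods. The deposited values are raw counts per gene. Of 104 columns 6 were used and 98 were not; the 3 wild-type CD8+ T cell columns stand against 2 samples.

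From these counts, edgeR 4.0.16 (R 4.3.3) compared NK with CD8+ T cells of Tyk2-/- mice: TMM factors, a filter at 10 normalised counts on average, robust quasi-likelihood fits and Benjamini-Hochberg adjustment over all genes tested, with a threshold of 0.05. The fit was tested on simulated data. DESeq2 1.42.0, RLE factors, no filter, other denominators and each library left out served as alternatives; chosen after seeing the data were windows matched against transcripts and the length of the shortest principal transcript. Lengths and windows came from GENCODE M21, promoters from RefSeq (GRCm38.p6). Scripts ran in Python 3.11.15. Library totals are given in the report, and a count of 0 allows up to 3 counts per library, which covers counting error only.

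Members and lists were chosen with earlier results of these data known. Named were the mitochondrial genes, called members, the highest and lowest level per length in each complex, tissue isoforms with their partners, core subunits, members uneven between libraries, and called genes of the other lists. Ndufs6, Uqcr11, Uqcrq, Atp5j2, Itgad, both mitochondrial rRNAs, Polrmt, Nrf1, Gabpa, Cyc1 and Ndufab1 were added after their values were seen. Some results that the rule names are not reported here.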

Additional observations from a re-analysis of the deposited data

How the results depend on the processing

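The count of members called rose from 22 to 38 with DESeq2's Wald test, with the split moving from 7 higher and 15 lower in NK cells to 19 and 19, and ran from 6 to 31 when single libraries were left out. Over all genes, DESeq2 called 3729 (2132 higher in NK cells, 1597 lower) in place of 1600, and leaving out single libraries gave 476 to 1946. With the 100 most abundant nuclear genes left out of the denominator, the mitochondrial share was 0.676% in NK cells against 2.93% in CD8+ T cells, and the nuclear share 4.13% against 3.44%; over nuclear protein-coding counts the nuclear share of NK cells was 2.76%. With single libraries left out, the log2 fold change ran from -0.21 to 8.38 for Atp5s (called without CD8 library 2, and -0.20 without CD8 library 1), from -0.70 to 8.53 for Cox7a1 (0.39 without NK library 3), from -0.14 to 0.62 for Ndufv1, from -0.074 to 0.25 for Uqcrc1 (-0.01 without NK library 2) and from -0.30 to 0.12 for Uqcrc2, none of them called in the comparison as reported. The values 8.38 and 8.53 are fitted against CD8+ T cell libraries at or near 0 counts, and are neither measured folds nor bounds. Of 418 values for 42 named genes, 348 kept direction and side of the threshold, 55 lost the call, 7 gained it and 8 turned. The median log2 fold change of all genes tested, 0.104 as reported, was 0.559 with no filter and 0.258, 0.323 and 0.269 without CD8 library 1, 2 and 3, so directions of small changes are relative to it. The cause of these shifts was not tested. No paired analysis was possible because the library numbers do not pair NK with CD8+ T cell samples, and the planned comparison with wild type, with and without a replicate block, was not run because 3 columns carried the wild-type name against 2 samples.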
